A study of Mus musculus with 6 samples.

Results

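The ZBTB genes encode transcription factors that pair an amino-terminal BTB domain with carboxy-terminal zinc fingers. In splenic B cells of 3 p80HT mice and 3 WT littermates, 2 of the 42 ZBTB genes rose in p80HT, none fell and 40 did not pass the test. The genes that rose were Zbtb32, by 1.04 on the log2 scale, and Zbtb20, by 0.74. The median change of the 42 genes was -0.19. A gene was counted as a member when the array platform's symbol for it began with Zbtb followed by a digit. This gave 42 of the 19938 genes with a probeset of their own, on 45 probesets, and RefSeq lists 42 mouse genes of that name pattern in its GRCm38 assembly. Of the 42, 40 encode BTB zinc finger proteins. The others are Zbtb8os, whose product belongs to the tRNA ligase complex, and Zbtb11os1, a noncoding transcript on the strand opposite Zbtb11.

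The transgene is human p80HT, a C-terminally truncated NF-κB2 found in lymphoma, under an H-2Kb promoter with an immunoglobulin µ enhancer, which makes it active in both T and B lymphocytes. All 6 mice were on a mixed C57BL/6J and SJL/J background and 1 year old. The p80HT mice were chosen as carriers of serum M-protein, a monoclonal immunoglobulin, and the WT mice were littermates without the transgene. Spleen cells were captured through B220, a form of CD45 on most mouse B cells, with magnetic beads, and RNA of each mouse went on 1 Affymetrix Mouse Gene 1.0 ST array. Values are log2 probeset signals, errors are SDs over 3 mice, and a change is the p80HT mean minus the WT mean. "Rose" and "fell" mean a change of at least 1.5-fold with an unadjusted limma p under 0.01.

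The BTB domain lets these proteins form dimers and recruit corepressor complexes or the Cul3 ubiquitin ligase, while the zinc fingers choose the DNA site. Most known members act as repressors. Several set lymphocyte fate: Zbtb7b directs CD4 T cells, Zbtb16 the innate-like T cells, and Bcl6, a relative under another name, the germinal centre B cell. Zbtb32, first described as a repressor of GATA3, is expressed in activated lymphocytes, memory B cells and plasmablasts, where it acts with Blimp-1, the product of Prdm1. Zbtb20 is needed for long-lived plasma cells and is expressed in germinal centre, B-1 and memory B cells.

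The array of p80HT replicate 3 stood apart from the rest. Over all genes (not independent points) it correlated with them at 0.914 to 0.925, while the other 5 correlated with each other at 0.981 or more. The mean of 14 salivary gland and stroma markers was 10.32 on that array and 6.70 to 7.03 on the others. The mean of 11 B cell markers was 10.78 there, 12.15 and 12.27 on the other p80HT arrays and 12.46 to 12.66 on the WT arrays. All 11 of these B cell markers, among them Cd79a, Ms4a1 and Pax5, were above the background level on every array. Changes that this array moves by over 1.5 times are given with and without it for the members. Over all genes, 243 rose and 193 fell, and centring each array on its median turned this to 183 and 342.

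Promoter windows of the genes that rose are shown first, because Zbtb32 and Zbtb20 share a low CpG content that most members lack. Of all genes with a window, 44.9% share it too. Zbtb21 is shown for contrast as the member with a window and the most negative change, -0.71, or -0.17 without p80HT replicate 3. The windows were chosen with these changes known. RefSeq windows for GRCm38.p6 run from 250 bases before to 50 bases into the transcript, 5′ to 3′ on the gene's strand, and capitals mark CpG dinucleotides. Zbtb32 has annotated starts in chr7:30598860-30599159 and chr7:30592893-30593192, both on the minus strand. Zbtb20 has its window at chr16:43247034-43247333 on the plus strand, and Zbtb21 at chr16:97962573-97962872 on the minus strand.
Zbtb32, upstream start: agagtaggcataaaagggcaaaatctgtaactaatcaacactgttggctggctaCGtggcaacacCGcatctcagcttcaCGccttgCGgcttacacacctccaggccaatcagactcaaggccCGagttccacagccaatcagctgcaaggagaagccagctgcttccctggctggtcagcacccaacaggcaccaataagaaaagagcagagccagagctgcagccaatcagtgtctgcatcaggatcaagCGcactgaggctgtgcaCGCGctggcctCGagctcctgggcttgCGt
Zbtb32, downstream start: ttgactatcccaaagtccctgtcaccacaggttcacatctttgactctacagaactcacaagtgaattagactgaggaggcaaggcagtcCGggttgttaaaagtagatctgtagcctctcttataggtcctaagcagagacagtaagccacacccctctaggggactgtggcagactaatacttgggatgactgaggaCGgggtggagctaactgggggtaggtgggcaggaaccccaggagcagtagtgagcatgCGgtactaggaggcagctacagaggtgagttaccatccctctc
Zbtb20: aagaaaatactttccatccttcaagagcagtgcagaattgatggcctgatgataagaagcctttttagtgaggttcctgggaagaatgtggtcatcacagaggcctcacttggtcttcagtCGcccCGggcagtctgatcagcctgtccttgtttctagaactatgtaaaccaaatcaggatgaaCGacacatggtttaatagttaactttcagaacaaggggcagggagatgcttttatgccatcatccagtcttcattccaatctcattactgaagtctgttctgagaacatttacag
Zbtb21: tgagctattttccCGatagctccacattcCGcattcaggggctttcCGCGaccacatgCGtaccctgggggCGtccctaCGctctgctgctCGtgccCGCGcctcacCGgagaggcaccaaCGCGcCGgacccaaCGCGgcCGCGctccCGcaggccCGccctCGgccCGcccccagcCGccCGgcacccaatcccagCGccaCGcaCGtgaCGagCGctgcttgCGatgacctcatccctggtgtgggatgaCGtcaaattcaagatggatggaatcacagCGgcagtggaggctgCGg
The upstream Zbtb32 window holds 10 CpG dinucleotides and the downstream one 3. The Zbtb20 window holds 3 and the Zbtb21 window 33. Observed CpG over that expected from the base composition was 0.428 and 0.15 for the Zbtb32 starts, 0.213 for Zbtb20 and 0.99 for Zbtb21. The upstream Zbtb32 window also holds 4 matches to the CCAAT box (CCAAT, searched on both strands), and the downstream one none.

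Zbtb32 was 8.70, 8.53 and 8.52 on the WT arrays and 9.99, 9.61 and 9.26 on the p80HT arrays. The groups did not overlap, and p80HT replicate 3 was the lowest of its group. The mean was 8.58 ± 0.10 in WT and 9.62 ± 0.37 in p80HT (SD, n = 3 each). The rise of 1.04 had a 95% interval of 0.58 to 1.51, or 2.06-fold at its centre (limma, adjusted p = 0.166 over all genes). It ranked 344 by size of rise and 128 by p among the 19938 genes. Without p80HT replicate 3 the rise was 1.22 (adjusted p = 0.0012). Leaving out any 1 array gave 0.86 to 1.22, each time past the threshold. A single-gene exact permutation test of 3 against 3 mice cannot give a p below 0.1.

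Zbtb20 was 10.87, 11.02 and 10.94 in WT and 11.98, 11.77 and 11.30 in p80HT. Again the groups did not overlap and p80HT replicate 3 was closest to WT. The rise was 0.74, with a 95% interval of 0.29 to 1.18 (limma, adjusted p = 0.287). On the 5 arrays other than p80HT replicate 3 it was 0.93 (adjusted p = 0.00164). This call was less stable than that of Zbtb32. It was lost without WT replicate 1 (0.70), WT replicate 2 (0.78), WT replicate 3 (0.74), p80HT replicate 1 (0.59) or p80HT replicate 2 (0.69), always in the same direction. The dimmer of the gene's 2 probesets read 10.27, 10.48 and 10.56 in WT and 11.00, 10.84 and 10.40 in p80HT. On that probeset the groups overlapped and the change was 0.31 (limma, adjusted p = 0.605), or 0.48 without p80HT replicate 3.

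**Figure D1:**
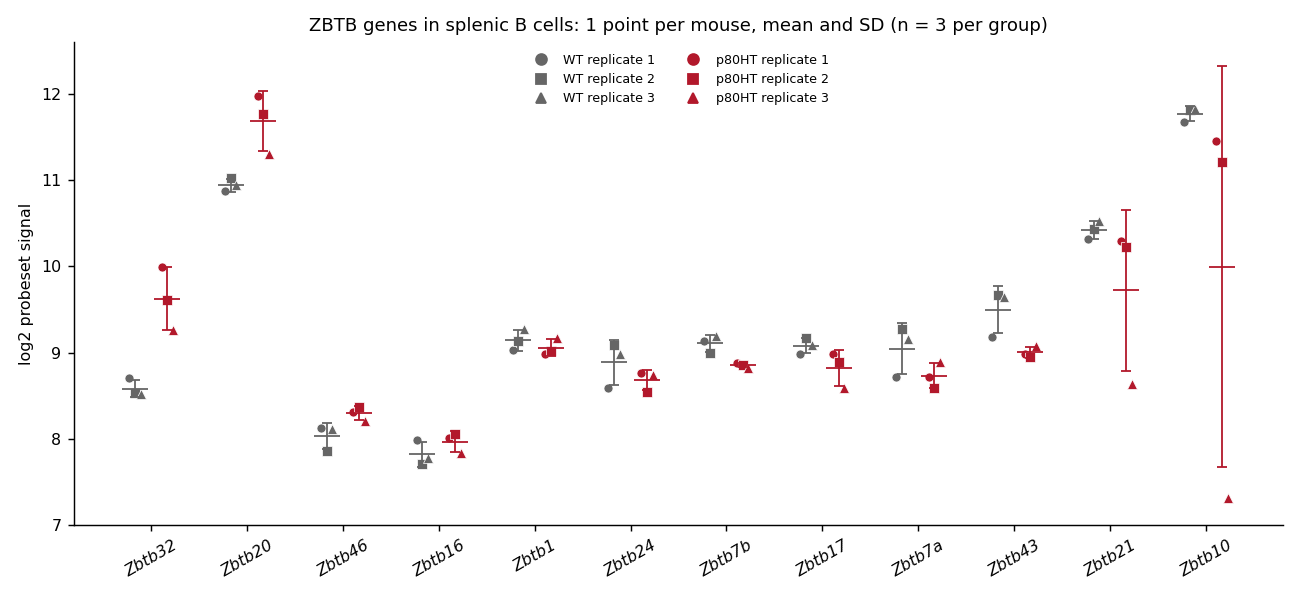
Log2 probeset signal (y axis) of 12 ZBTB genes (x axis), with 1 point per mouse, grey for WT and red for p80HT, and bars for the mean and SD of 3 mice. Zbtb32 and Zbtb20 lie higher in all 3 p80HT mice than in any WT mouse, and p80HT replicate 3 is far below the others for Zbtb10 and Zbtb21. Levels of different genes are not comparable, since each has its own probeset.

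The 2 members that rose compare with 1.22% of all genes that rose, and the 0 that fell with 0.968% that fell. At an adjusted p under 0.05 no member passed, against 0.0552% of all genes, while 4 of 42 members and 2042 of 19938 genes had an unadjusted limma p under 0.05. Without p80HT replicate 3, the counts were again 2 higher and 0 lower, beside 2.01% and 1.45% of all genes. Then 2 members, Zbtb32 and Zbtb20, also passed an adjusted p under 0.05, beside 4.67% of all genes. All 3 p80HT arrays lay above all 3 WT arrays for 5 members, near the 8.86% of all genes that did so. They lay below for 11 of the 42 members, a larger share than the 11.9% of all genes that did so, and 26 members overlapped. This difference in share was not tested.

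Most other members sat slightly below WT. The change was below 0 in 29 of 42 members, or 69.0%, and in 54.9% of all genes. The members' median of -0.19 stands beside -0.02 for all genes, and their middle range ran from -0.25 to 0.10. Without p80HT replicate 3 the median was -0.13 beside 0.04, with 29 members below 0 again and 43.7% of all genes. Of the 40 members that did not pass, 32 changed by less than 0.3 in either direction. For 21 of the 40 the 95% interval lay inside 1.5-fold both ways, and for 19 it reached past 1.5-fold. Among the 19 were Zbtb43 and Zbtb11, whose intervals lay wholly below 0. The median SD over members was 0.112 in WT and 0.226 in p80HT, and 0.0925 between p80HT replicates 1 and 2.

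**Figure D2:**
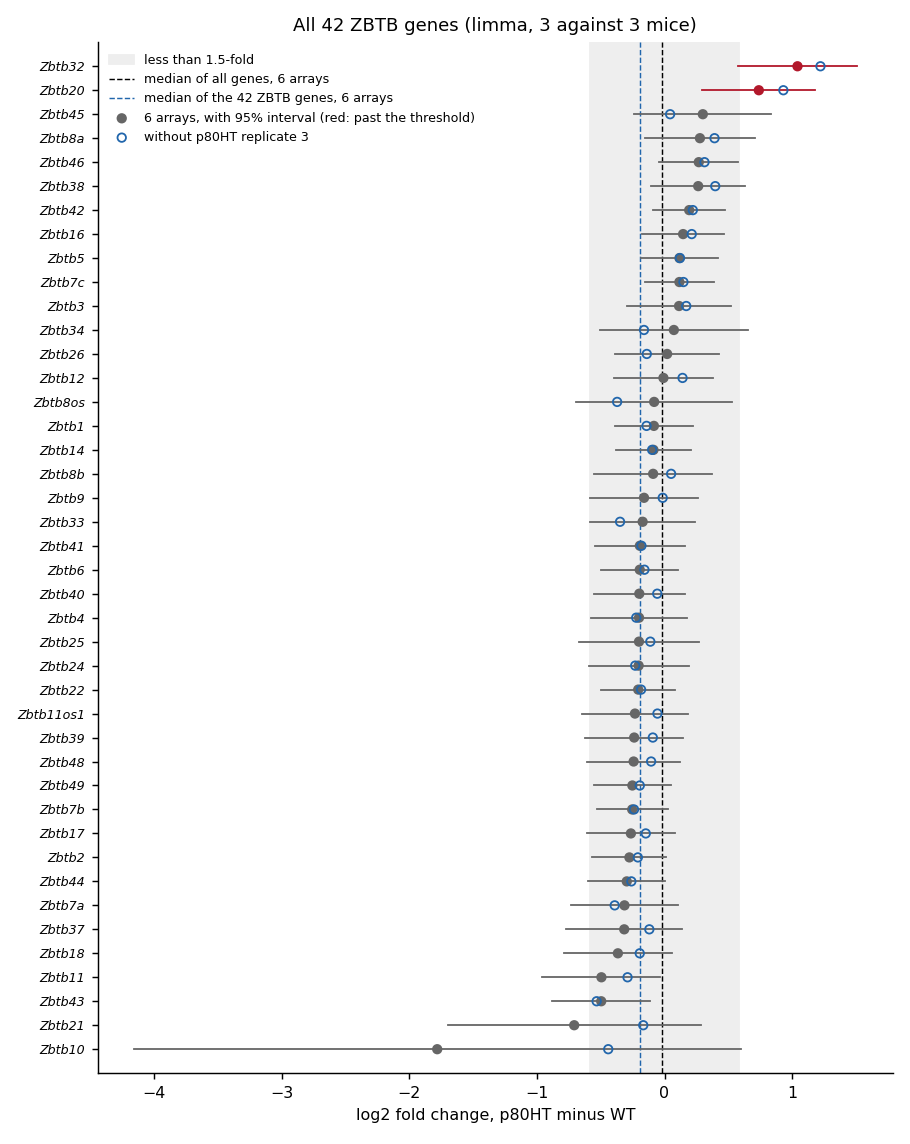
Log2 fold change, p80HT minus WT (x axis), for each of the 42 ZBTB genes (y axis), with filled points and 95% intervals from 6 arrays and open points without p80HT replicate 3. Zbtb32 and Zbtb20, in red, are the members past the threshold, at 1.04 and 0.74, and most others lie in the grey band of less than 1.5-fold. Dashed lines mark the median of all genes, -0.02, and of the ZBTB genes, -0.19.

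Set against its own family on the same array, Zbtb32 moved away from it. The median of the 41 other members was 8.77, 8.94 and 8.91 in WT and 8.76, 8.78 and 8.59 in p80HT, lowest on p80HT replicate 3. Zbtb32 minus this median was -0.07, -0.41 and -0.40 in WT and 1.23, 0.83 and 0.67 in p80HT. The means were -0.29 ± 0.20 and 0.91 ± 0.29 (SD, n = 3), a difference of 1.20, larger than the spread within either group. It was 1.32 without p80HT replicate 3. The offset itself has no meaning, since probesets differ in brightness, and only its change between groups is read. Zbtb20 minus the same median was 2.02 to 2.10 in WT and 2.71 to 3.21 in p80HT.

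**Figure D3:**
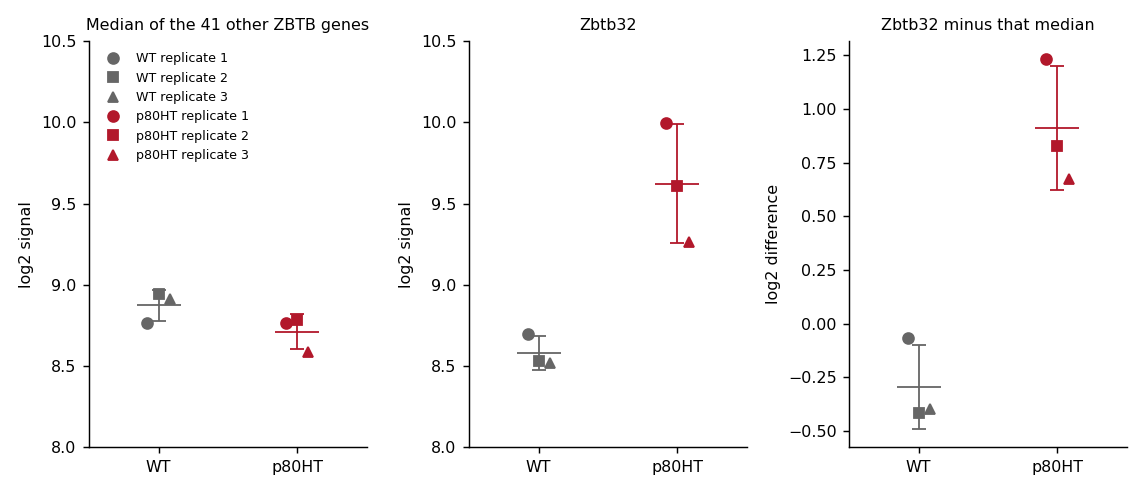
Left and centre, log2 signal of the median of the 41 other ZBTB genes and of Zbtb32; right, their difference on each array (y axes), with 1 point per mouse and bars for mean and SD by group (x axis). The family median stays between 8.59 and 8.94 while Zbtb32 minus that median is -0.41 to -0.07 in WT and 0.67 to 1.23 in p80HT.

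Among the 9 members tied to lymphocyte and dendritic cell fate, Zbtb32 and Zbtb20 rose and 7 did not pass, the median being -0.08. Zbtb46, a marker of classical dendritic cells, was 8.12, 7.86 and 8.11 in WT and 8.32, 8.37 and 8.21 in p80HT. All p80HT values were above all WT values, but the change was only 0.27 (limma, adjusted p = 0.542). Zbtb16, which encodes PLZF of innate-like T cells, was 7.98, 7.70 and 7.78 against 8.01, 8.06 and 7.83, and the groups overlapped (0.15). Zbtb7b, which encodes ThPOK of CD4 T cells, was 9.14, 9.00 and 9.19 in WT and 8.88, 8.86 and 8.83 in p80HT. Its p80HT values were all lower, by 0.25 on average, with an interval of -0.53 to 0.02.

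Zbtb7a, which encodes LRF, a factor in the choice between B and T lineage and in germinal centres, was 8.71, 9.27 and 9.15 in WT and 8.72, 8.59 and 8.89 in p80HT. The groups overlapped through WT replicate 1 (change -0.31). Zbtb17, which encodes Miz-1, a partner of Myc, was 8.99, 9.17 and 9.09 against 8.98, 8.89 and 8.58. Its p80HT values were below all WT values, the change being -0.26, or -0.15 without p80HT replicate 3. Zbtb1, needed for lymphoid development, was 9.03, 9.13 and 9.27 against 8.98, 9.02 and 9.17, and Zbtb24, mutated in an immunodeficiency with centromeric instability, 8.58, 9.09 and 8.98 against 8.76, 8.55 and 8.74. Both overlapped, with changes of -0.08 and -0.20, or -0.14 and -0.23 without p80HT replicate 3.

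Of the 3 members known to read methylated DNA, none passed the test. Zbtb33, which encodes Kaiso, changed by -0.17, Zbtb4 by -0.20 and Zbtb38 by 0.26, and the groups overlapped for all of them. Without p80HT replicate 3 these were -0.35, -0.22 and 0.40. Of 8 members tied to growth control or telomeres, none passed, 6 were below 0 and the median was -0.25, or -0.15 without p80HT replicate 3. For 5 of the 8 all p80HT values lay below all WT values, a larger share than the 11.9% of all genes, which was not tested. Zbtb11, an essential nuclear factor, was 10.49, 10.67 and 10.66 in WT and 10.40, 10.23 and 9.70 in p80HT, a change of -0.49 (limma, adjusted p = 0.463), or -0.29 without p80HT replicate 3. Zbtb11os1, which overlaps this gene on the other strand, changed by -0.23 and was not above background on p80HT replicate 3, without which it changed by -0.06. Zbtb48, the telomere binding factor TZAP, changed by -0.24, Zbtb2 by -0.28, Zbtb49 by -0.25 and Zbtb40 by -0.20, while Zbtb5 and Zbtb7c changed by 0.12 each. Zbtb48 changed by -0.10 and Zbtb40 by -0.06 without p80HT replicate 3.

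The most negative changes rested on 1 array. Zbtb10, a repressor of Sp factor target genes, was 11.67, 11.82 and 11.83 in WT and 11.46, 11.21 and 7.32 in p80HT. On p80HT replicate 3 it was not above the background level of 7.42, so the change of -1.78 had an interval of -4.16 to 0.60 (limma, adjusted p = 0.594). Without that array it was -0.44, with all values still below WT, short of 1.5-fold. Zbtb21 was 10.32, 10.43 and 10.54 against 10.29, 10.23 and 8.64, a change of -0.71, or -0.17 without p80HT replicate 3. These were the 2 members more than 1 log2 unit lower on p80HT replicate 3 than on the mean of the other p80HT arrays. That array was the lowest of the 6 for 19 members, or 45.2%, and for 48.1% of all genes.

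Zbtb43 was 9.18, 9.67 and 9.64 in WT and 8.99, 8.94 and 9.07 in p80HT. All p80HT values were lower and p80HT replicate 3 was not apart, but the change of -0.50 was under 1.5-fold (limma, adjusted p = 0.389). It was -0.65 and past the threshold without WT replicate 1, the lowest WT array. Changes of the other BTB zinc finger members ranged from -0.37 for Zbtb18, a repressor known from neurons, to 0.30 for Zbtb45, and none passed. Both ends leaned on p80HT replicate 3, without which they were -0.19 and 0.04. Those below -0.15 were Zbtb37 (-0.32), Zbtb44 (-0.30), Zbtb39 (-0.24), Zbtb22 (-0.21), Zbtb25 (-0.20), Zbtb6 (-0.19), Zbtb41 (-0.19) and Zbtb9 (-0.16). Nearer to 0 were Zbtb14 (-0.09), Zbtb8b (-0.09), Zbtb12 (-0.01), Zbtb26 (0.02), Zbtb34 (0.07) and Zbtb3 (0.11), and above them lay Zbtb42 (0.19) and Zbtb8a (0.28). On the 5 arrays other than p80HT replicate 3, Zbtb37 (-0.12), Zbtb39 (-0.09), Zbtb25 (-0.11) and Zbtb9 (-0.01) lay closer to 0. Zbtb34 (-0.16), Zbtb26 (-0.14), Zbtb8b (0.05) and Zbtb12 (0.14) then had the opposite sign. Zbtb8os, which is no zinc finger gene, changed by -0.08, or -0.37 without that array. Zbtb8b was not above background on any array, and 39 of 42 members were above it on all 6. The second probesets of Zbtb44 and Zbtb2 changed by -0.25 and -0.06, beside -0.30 and -0.28 for the brighter ones.

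Promoter composition varied across the family. Windows were found for 37 of the 42 members. Of these, 30 had at least 1 start with an observed over expected CpG ratio of 0.6 or more, and 7 stayed below it at every start, or 18.9% where 44.9% of 15614 genes did. The 7 were Zbtb46 (0.052), Zbtb20 (0.213), Zbtb32 (0.428), Zbtb8b (0.505), Zbtb11os1 (0.506), Zbtb7b (0.51) and Zbtb3 (0.523). Both members that rose were among these 7, and 0 of the 30 others rose. Median changes were 0.11 in the CpG-poor and -0.20 in the CpG-rich members, beside -0.01 and -0.04 for all genes of those classes. These were 0.17 and -0.16 in the members, beside 0.10 and -0.05, without p80HT replicate 3. Over all genes, 1.31% of the CpG-poor and 1.06% of the CpG-rich ones rose. The κB consensus occurred in 5 of 50 member windows (10%) and in 4.51% of all 32851 windows. No window of Zbtb32 or Zbtb20 held a match, which says only that these letters are not in these 300 bases. CCAAT occurred in 16 of 50 member windows (32%) and in 37.4% of all.

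**Figure D4:**
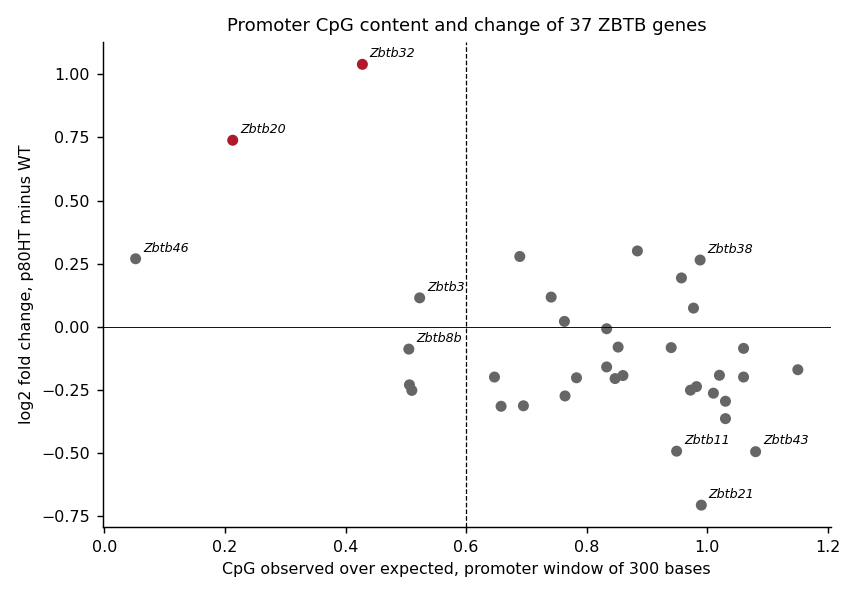
Log2 fold change, p80HT minus WT (y axis), against the highest CpG observed over expected ratio of a gene's promoter windows (x axis), 1 point for each of 37 ZBTB genes, red where the gene rose. Zbtb32 (0.428) and Zbtb20 (0.213) lie left of the dashed line at 0.6 with 5 other members, and none of the 30 members to its right rose.

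BTB zinc finger genes that carry other symbols gave 9 measured genes, of which 1 fell and none rose, with a median of -0.12. Bcl6 was 10.64, 10.75 and 10.80 in WT and 10.30, 9.90 and 10.03 in p80HT. All p80HT values were below all WT values, and Bcl6 fell by 0.65 (limma, adjusted p = 0.221). Without p80HT replicate 3 it fell by 0.63, and Zfp131, which did not pass with all arrays (-0.54), fell by 0.66. Of 19 measured corepressor and ubiquitin ligase partners of BTB proteins, none passed either way and the median was -0.22. Closest were Hdac7, a class IIa deacetylase, at -0.32 (limma, adjusted p = 0.44) and Chd4, the NuRD remodeller, at -0.30 (limma, adjusted p = 0.457).

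Of 15 measured partners and reported targets of Zbtb32, 3 rose, beside 1.22% of all genes, and 12 did not pass. None fell, and the median was -0.06. Cd28, a costimulatory receptor, rose by 0.92, Gata3 by 1.08 and Prdm1, the Blimp-1 gene, by 0.80 (adjusted p = 0.0827, 0.136 and 0.181). The same 3 genes rose without p80HT replicate 3. Ciita, the master activator of MHC class II genes, was 10.92, 11.24 and 10.99 in WT and 10.83, 10.71 and 10.30 in p80HT. Its change of -0.43 did not pass (limma, adjusted p = 0.474), and was -0.28 without p80HT replicate 3. The class II genes H2-Aa, H2-Ab1 and H2-DMa changed by -0.12, -0.06 and 0.04, and the invariant chain gene Cd74 by -0.17. The class II genes H2-Eb1, H2-Oa and H2-Ob changed by -0.295, -0.32 and -0.50 and did not pass. Without p80HT replicate 3 these last were -0.06, 0.07 and -0.02. The cytokine genes Il4, Il5 and Il13, which Zbtb32 represses in T cells, changed by -0.06, 0.03 and -0.04, but Il4 and Il5 were not above background on any array. On the chromosome, Kmt2b and Upk1a beside Zbtb32 changed by -0.19 and 0.33 and did not pass, while Tigit beside Zbtb20 rose by 1.54. Tigit was 8.61, 8.79 and 8.91 in WT and 9.98, 9.87 and 11.08 in p80HT, highest on p80HT replicate 3. A link between the rises of Tigit and Zbtb20 was not tested.

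Markers of other cells moved with the groups too. Cd28 and Gata3 are also T cell markers. Of 17 such genes measured, 6 rose, beside 1.22% of all genes, none fell and the median was 1.27. Without p80HT replicate 3 the median was 0.76, and 15 of the 17 rose, beside 2.01% of all genes. For all 17, every p80HT value lay above every WT value, as for 8.86% of all genes. Bcl11b, a T lineage factor, rose by 0.94 and Cd3e, a CD3 chain, by 1.74. The mean of the 17 was 8.20 to 8.49 on WT arrays and 9.23, 9.04 and 10.57 on p80HT arrays. On p80HT replicate 3, where this mean was highest, Zbtb32 and Zbtb20 were the lowest of the p80HT group. The B cell marker mean was also lowest on that array, at 10.78, as were the values of 48.1% of all genes. The order of the p80HT arrays is therefore not read as bearing on T cells. Cd3d, a defining T cell gene, was below the background level of 7.42 on the WT arrays and 7.43, 7.51 and 9.50 on the p80HT arrays. Cd3d was an exception, since the other markers of this list apart from Cd6 were above background on every array. Cd3e, for example, was 9.41, 9.83 and 9.63 in WT. In bulk RNA, more cells of a type and more RNA per cell cannot be told apart, and the part of T cells in the rises of Zbtb32 and Zbtb20 was not tested.

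The list of memory and B-1 B cell markers contains Zbtb20 itself. It shares Cd5 with the T cell list and Itgax with the macrophage and dendritic cell list. Of its 13 genes, 7 rose, beside 1.22% of all genes, none fell and the median was 1.05, or 0.80 without p80HT replicate 3. Their mean was 9.07 to 9.24 in WT and 10.11, 9.97 and 10.31 in p80HT, with no overlap. Cd80, a costimulatory ligand, rose by 1.81 and Nt5e, the ectonucleotidase CD73, by 1.47 (adjusted p = 0.0173 and 0.0191), and Fcrl5 and Ctla4 rose by 1.06 and 1.27. Without p80HT replicate 3, 10 of the 13 rose, beside 2.01% of all genes. Of 11 plasma cell markers, Prdm1 and Cd27 (1.69) rose, none fell and the median was 0.26, or 0.09 without p80HT replicate 3. The change was above 0 for 8 of the 11 and below 0 for 3. Of 11 B cell markers none passed, with a median of -0.65 that was -0.22 without p80HT replicate 3, when Cr2 and Fcer2a fell by 1.13 and 1.00. For 8 of the 11 all p80HT values lay below all WT values, as for 11.9% of all genes. All 11 changes were below 0, and 10 were without p80HT replicate 3. Of 16 macrophage and dendritic cell markers 2 passed as higher, Adgre1, which rose by 0.72, and Vsig4, which was not above background on any array. The median of the 16 was 0.76, or 0.37 without p80HT replicate 3. Above WT without overlap lay 9 of them, beside 8.86% of all genes, and 1 lay below. Of 10 NK cell markers Nkg7 rose by 1.31, with a median of 0.30, or 0.34 without p80HT replicate 3. Klrb1c, Klre1 and Klra8 were not above background on any array, and Klrk1 and Gzmb only on some, so this median leans on values near background. None of 14 salivary gland and stroma markers passed, with a median of 0.82, or 0.11 without p80HT replicate 3. No gene of these 3 lists fell. Closest by p in the last list were the collagen genes Col1a1 (0.55) and Col3a1 (0.39). The larger changes of Pip (2.82) and Dcpp2 (3.00) came from p80HT replicate 3, without which they were 0.07 and 0.35. The part of any of these markers in the ZBTB changes was not tested.

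**Figure D5:**
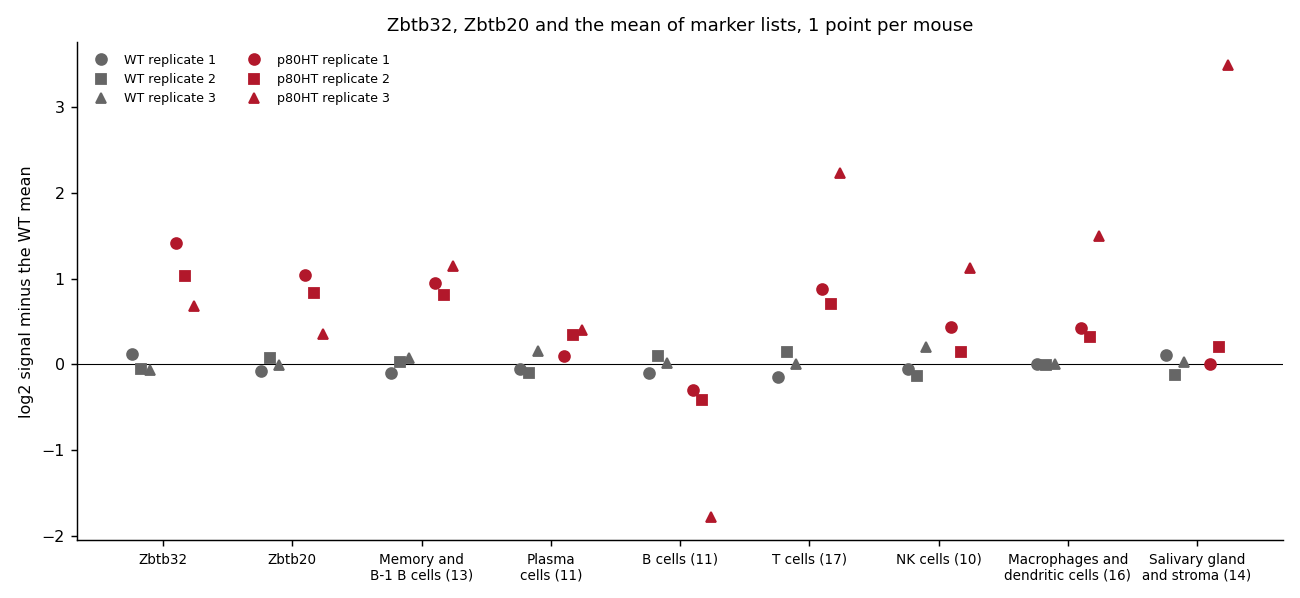
Log2 signal minus the WT mean (y axis) of Zbtb32, of Zbtb20 and of the mean of 7 marker lists (x axis, number of genes in brackets), with 1 point per mouse, grey for WT and red for p80HT. Zbtb32, Zbtb20 and the memory and B-1, T cell, and macrophage and dendritic cell lists are higher in all 3 p80HT mice than in any WT mouse, and p80HT replicate 3 is apart for the B cell, T cell, NK cell, macrophage and salivary gland lists.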

How the data were processed

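RNA of B220-selected spleen cells of 3 p80HT and 3 WT mice was measured on 6 Affymetrix Mouse Gene 1.0 ST arrays, grouped by the labels. The deposited values are log2 probeset signals that the authors made with RMA in Partek, whose versions and settings are not given in the sources used here. Of 28853 probesets, 21789 have 1 gene symbol, 1621 several and 5443 none in the platform table. Those with 1 were used, and each of 19938 genes was represented by its brightest probeset by mean signal on the 6 arrays. Array medians ran from 7.68 to 7.81. The number of arrays limits the precision.

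The comparison used lmFit and eBayes (limma 3.58.1, R 4.3.3), 2-sided and with no covariate, with Benjamini-Hochberg adjustment over all genes. The threshold of 1.5-fold and p under 0.01 follows the study's methods. Background was the 95th percentile of mean signal of 1027 olfactory receptor genes, 7.42. The members, the 13 gene lists and the threshold were chosen with earlier results of these data known. Genes named by value were every member, and from each list up to 4 past the threshold or, with none, up to 2 of smallest p. Others named were chosen after their values were seen. They were the class II, invariant chain and cytokine genes, Ciita, Zfp131, Cd3d, Cd6, Pip, Dcpp2, the neighbouring genes and NK cell genes near background. Deviations of same-numbered WT and p80HT mice correlated at 0.07, -0.24 and 0.07, so the numbers were not taken as pairs. The study's methods give 3 mice a group, taken here as 1 per array. Alternatives were leaving out each array, a replicate block, ordinary analysis of variance, an intensity trend, array weights, quantile normalization, median centring, filters at the 25th and 50th percentile, the mean of probesets and an adjusted p. Scripts were tested on simulated data. Tables used Python 3.11.15 with pandas 2.3.3, and figures matplotlib 3.10.9. Promoter windows came from RefSeq; Zbtb10, Zbtb16, Zbtb40, Zbtb48 and Zbtb7c had none in the table used here. Genes of the lists without a probeset of their own are not analysed here.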

Additional observations from a re-analysis of the deposited data

How the results depend on the processing

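Zbtb32 kept its direction under all 16 alternatives and its call under 15, with changes from 0.86 without p80HT replicate 1 to 1.38 with array weights. With an adjusted p under 0.05 as the rule it did not pass (1.04, adjusted p = 0.166). The count of ZBTB genes that rose was 1 with the mean of a gene's probesets, with median centring and with ordinary analysis of variance, and 0 with the adjusted p. Leaving out 1 array gave 1 to 2. In each setting with 1, Zbtb20 was the gene lost, at 0.53, 0.65 and 0.74, and that call also ended without any 1 array other than p80HT replicate 3. The count that fell was 1 with array weights (Zbtb43, -0.64), and 0 to 1 on leaving out an array. The median change of the 42 members, -0.19, was -0.10 with array weights, -0.29 with median centring and -0.13 to -0.21 on leaving out an array, below 0 in every setting run. Zbtb32 minus the median of the other members differed between groups by 1.04 to 1.32 on leaving out an array and by 1.17 with the mean of probesets, and was not run under other settings. With a replicate block the counts were again 2 and 0, and Zbtb32 changed by 1.04 (limma, adjusted p = 0.13). It changed no member's call. The 40 BTB zinc finger genes alone and the dimmer Zbtb20 probeset were added after the data were seen, and the first gave 2 and 0. Over all genes, 243 rose and 193 fell. These counts were 401 and 290 without p80HT replicate 3, 119 and 77 with ordinary analysis of variance, 478 and 422 with array weights, 183 and 342 with median centring, and 158 and 231, 137 and 69, and 149 and 71 without WT replicates 1, 2 and 3. The 11 genes at an adjusted p under 0.05 became 931 without p80HT replicate 3, 7155 with array weights, 35 with the filter at the 50th percentile, 18 with quantile normalization, 6 with the block, and 0 with ordinary analysis of variance or without any other array. With 3 mice a group, the intervals of 19 of the 40 members that did not pass reached a change of 1.5-fold.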
